A study of Mus musculus with 27 samples.

Results

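The genes used here to recognise horizontal cells number 6 and were followed in whole retina of mice between embryonic day 14 (E14) and postnatal day 60 (P60): Onecut1, Onecut2, Onecut3, Lhx1, Prox1 and Calb1. They were taken by gene symbol from a table of 38168 features, and all 6 members had 1 entry each. The table covered 27 RNA-seq libraries of wild type C57BL/6J mice with no treatment group: 3 libraries at E14, 3 at E17, 4 at P1, 3 at P6, 4 at P15, 4 at P28 and 6 at P60. The study made most libraries from pooled retinas, with both sexes mixed in embryos and at P1 and males at later ages, so that age and sex cannot be told apart before and after P1. At P60, 4 of the 6 libraries were single mice and the others pools, and the labels do not say which.

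Horizontal cells are inhibitory interneurons of the outer retina that contact photoreceptor terminals and shape their output. They leave the cell cycle in the embryonic retina and then move to the outer edge of the inner nuclear layer. Foxn4 and Ptf1a act early in this lineage, Onecut1 and Onecut2 are needed for the cells to form, Prox1 is required for their production, and Lhx1 directs them to their layer. Calbindin, the calcium-binding product of Calb1, is the usual stain for the mature cells. None of the 6 except Lhx1 is close to specific: Onecut factors are also present in young ganglion cells and cone precursors, Prox1 in amacrine and bipolar cells, and Calb1 in amacrine and ganglion cells. In whole tissue, fewer cells of a type and less RNA per cell cannot be told apart.

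The values are CPM, the reads of a feature scaled to the total of its library. The whole reads recovered from them gave library totals between 7077781 and 11332323 (median 7969873), so that 1 read was worth 0.0882 to 0.141 CPM. The lowest correlation between libraries of 1 age was 0.940 at P60 and at least 0.977 at the other ages, and P60 libraries 3 and 5 had the most features at 0, 12.0% and 13.4%. Also at P60, libraries 1 and 2 differed less from each other (chi-square of reads per degree of freedom 3.13) than from libraries 3 to 6 (7.63 to 19.3), which differed among themselves by 4.37 to 8.54. Whether this split is that of pools and single mice cannot be told from the labels. The rod marker list (8 genes) summed to 23.7 to 30.9 CPM at E14 and 26294 to 32074 CPM at P60, and all 8 were higher in mature retina. The progenitor list (6 genes) fell from 5203 to 5333 CPM at E14 to 35.3 to 55.8 CPM at P60, with all 6 lower. Of other lists, 5 of 6 ganglion cell, 0 of 5 amacrine, 0 of 5 bipolar, 2 of 6 Müller glia and 1 of 5 cone genes were lower, and 1, 4, 5, 4 and 4 were higher; of all features, 40.4% were lower and 35% higher. Lens markers summed to at most 5.49 CPM and blood markers to at most 28.5 CPM in any library. The part of these shifts in the results on the 6 genes was not tested.

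The promoters of 3 members, each with a noncoding gene nearby that is described further on, are shown as the 250 bases before a RefSeq start site on the strand of the gene (GRCm38.p6, 5′ to 3′). Prox1 has 2 RefSeq start sites, and the window shown is that of the outer one. Capitals mark matches to short motifs searched on both strands.

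Onecut1, chr9:74861671-74861920, plus strand: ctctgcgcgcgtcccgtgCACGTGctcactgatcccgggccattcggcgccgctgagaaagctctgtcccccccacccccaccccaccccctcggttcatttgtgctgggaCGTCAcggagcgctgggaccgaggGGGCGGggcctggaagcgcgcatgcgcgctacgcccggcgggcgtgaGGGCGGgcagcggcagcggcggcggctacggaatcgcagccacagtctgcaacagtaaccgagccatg

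Lhx1, chr11:84525535-84525784, minus strand: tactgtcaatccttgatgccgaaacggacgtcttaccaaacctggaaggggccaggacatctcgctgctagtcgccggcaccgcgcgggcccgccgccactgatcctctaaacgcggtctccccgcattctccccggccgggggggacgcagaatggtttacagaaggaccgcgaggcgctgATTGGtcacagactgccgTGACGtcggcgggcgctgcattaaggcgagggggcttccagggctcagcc

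Prox1, chr1:190170828-190171077, minus strand: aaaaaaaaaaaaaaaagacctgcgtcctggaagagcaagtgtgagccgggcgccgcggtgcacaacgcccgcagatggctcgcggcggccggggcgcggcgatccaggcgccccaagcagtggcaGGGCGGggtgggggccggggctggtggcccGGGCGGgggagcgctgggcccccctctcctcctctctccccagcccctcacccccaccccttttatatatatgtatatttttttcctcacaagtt

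The Onecut1 window held the E-box CACGTG, which was present in 6.02% of 32851 promoters of this length, the reverse complement of the cAMP response half-site TGACG (17.8%) and the GC box GGGCGG at 2 positions (32.7%). The Lhx1 window held TGACG and the reverse complement of the CCAAT box (CCAAT, 33.8%), and the Prox1 window held GGGCGG at 2 positions. The window of the other Prox1 start site, not shown, held GGGCGG at 1 position. The Onecut motifs ATCGAT (0.728%) and ATCAAT (6.72%), the E-box CAGCTG (13.0%) and the homeobox motif TAATTA (4.84%) had no match in these 3 windows. A match is a description of the letters only.

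The 6 genes did not share a course between embryonic and mature retina. Onecut1, Onecut2 and Onecut3 fell, Prox1 and Calb1 rose, and Lhx1 did not pass the test. Mature retina (the mean of P15, P28 and P60) was compared with embryonic retina (the mean of E14 and E17) by limma on log2(CPM + 1) in all 27 libraries, with Benjamini-Hochberg adjustment over 31760 features. Of the members, 5 passed at an adjusted p under 0.05, as did 75.4% of all features tested (35% higher and 40.4% lower), so the count itself says little about the members. With a log2 change of at least 1 in either direction as well, the same 5 passed against 31% of features. Among all features, 0.96% had a lower log2 fold change than Onecut2, 1.39% a lower one than Onecut1 and 99.2% a lower one than Calb1.

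Onecut1 encodes a cut-homeodomain factor and lies on chromosome 9 from 74861921 to 74891781 (GRCm38, GENCODE annotation, plus strand). It measured 233, 222 and 225 CPM at E14, 130, 122 and 129 CPM at E17, and 60.2, 64.5, 55.9 and 54.5 CPM at P1. At P6 the libraries gave 30.5, 36.9 and 33.9 CPM, at P15 21.1, 20.3, 19.2 and 19.5 CPM, and at P28 23.2, 20.2, 20.8 and 18.6 CPM. At P60 the lowest value was 13.0, the median 16.5 and the highest 20.4 CPM. The libraries of each age up to P6 lay apart from those of every other age, while P15, P28 and P60 overlapped. The E14 mean was 13.8 times the P60 mean, and the log2 fold change of mature against embryonic retina was -3.10 ± 0.08 (SE, limma adjusted p = 1.8e-26).

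Onecut2, the paralog with the most reads, occupies bases 64340020 to 64400987 of the plus strand of chromosome 18. Its E14 libraries gave 533, 552 and 562 CPM, its E17 libraries 267, 242 and 252 CPM, and its P1 libraries 166, 165, 169 and 164 CPM. The values were 93.3, 102 and 99.3 CPM at P6, 34.5, 36.2, 39.1 and 32.0 CPM at P15, and 38.6, 41.0, 39.4 and 30.8 CPM at P28. At P60 they ran from 16.8 CPM through a median of 26.6 to 35.5 CPM. As for Onecut1, the 4 ages up to P6 did not overlap with any other age. The mean at E14 was 20.4 times that at P60. The log2 fold change between mature and embryonic retina was -3.48 ± 0.09 (limma adjusted p = 7.46e-26).

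Onecut3, the third paralog, occupies bases 80494835 to 80517276 of the plus strand of chromosome 10. It stood at 45.3, 45.6 and 54.9 CPM at E14, 28.5, 30.6 and 31.0 CPM at E17, and 13.5, 12.2, 13.9 and 13.0 CPM at P1. The P6 libraries gave 13.6, 13.2 and 14.1 CPM, those of P15 9.90, 12.8, 14.5 and 20.6 CPM, and those of P28 13.9, 17.6, 12.2 and 11.6 CPM. At P60 the lowest, median and highest values were 9.28, 12.7 and 17.7 CPM. All libraries from P1 on shared 1 overlapping range, below every embryonic library. The log2 fold change was -1.44 ± 0.11 (limma adjusted p = 5.37e-13), with a mean at E14 that was 3.73 times that at P60.

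Lhx1, the LIM-homeodomain factor that marks horizontal cells most closely, occupies bases 84518284 to 84525535 of the minus strand of chromosome 11 and had 9 to 52 reads per library. It measured 2.50, 0.949 and 1.26 CPM at E14, 3.68, 3.53 and 4.35 CPM at E17, and 4.17, 3.40, 3.96 and 3.90 CPM at P1. The libraries gave 5.09, 5.41 and 2.76 CPM at P6, 3.61, 2.90, 5.35 and 1.92 CPM at P15, and 1.60, 2.81, 2.16 and 3.02 CPM at P28. At P60 the lowest was 1.22, the median 1.83 and the highest 7.14 CPM. The 3 E14 libraries lay below all those of E17 and P1, and all P6 libraries lay above E14. All P28 libraries lay below E17 and P1, while P15 and P60 overlapped with all 3 of these ages. The log2 fold change of mature against embryonic retina was 0.08 ± 0.20 (limma adjusted p = 0.74). An F test over the 7 ages passed for Lhx1 (limma adjusted p = 0.0261) and for the other 5 members, as for 83% of features.

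Prox1, the prospero-type homeodomain factor, occupies bases 190118035 to 190170714 of the minus strand of chromosome 1. Its libraries gave 92.1, 95.5 and 97.5 CPM at E14, 146, 144 and 152 CPM at E17, and 213, 216, 202 and 214 CPM at P1. It reached 489, 465 and 415 CPM at P6, and stood at 318, 319, 333 and 341 CPM at P15 and 323, 308, 318 and 285 CPM at P28. At P60 the values ran from 286 CPM through a median of 317 to 364 CPM. Every P6 library was above every library of any other age, and P15, P28 and P60 overlapped. Mature exceeded embryonic retina by a log2 fold change of 1.42 ± 0.05 (limma adjusted p = 5.02e-23), and the P60 mean was 3.40 times that at E14.

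Calb1 occupies bases 15881264 to 15908064 of the plus strand of chromosome 4. It measured 1.20, 0.316 and 0.105 CPM at E14, which is 12, 3 and 1 reads, then 2.04, 2.29 and 1.97 CPM at E17 and 1.84, 0.882, 0.905 and 2.13 CPM at P1. It rose to 15.3, 14.8 and 10.6 CPM at P6 and to 58.5, 48.6, 51.1 and 43.3 CPM at P15. The P28 libraries gave 39.4, 38.6, 38.4 and 33.7 CPM, and P60 ran from 18.3 CPM through a median of 29.4 to 32.4 CPM. P15, P28 and P60 did not overlap with each other or with any earlier age. The log2 fold change of mature against embryonic retina was 4.16 ± 0.13 (limma adjusted p = 3.6e-23). The P15 mean was 93.2 times the E14 mean, a ratio that rests on 1 to 12 reads per library at E14.

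**Figure D1:**
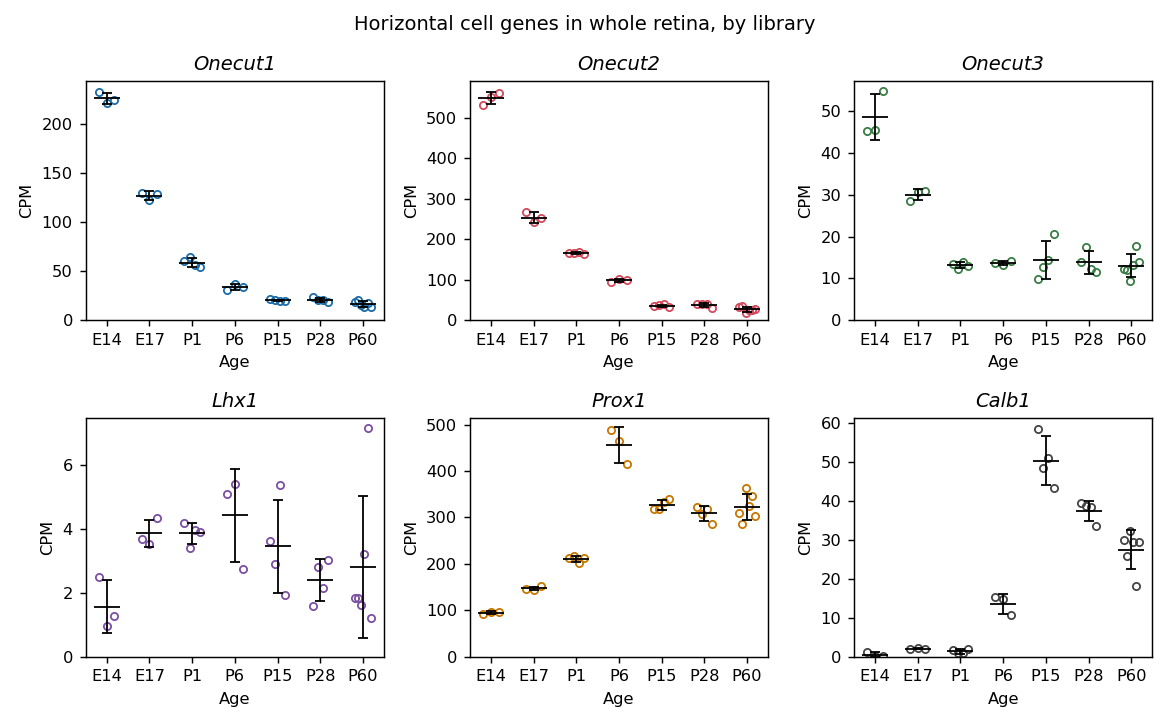
CPM of each of the 6 genes (vertical axes, each from 0) at the 7 ages (horizontal axes). Circles are libraries, the long dash is the mean and the bars are the SD (n = 3 to 6). Onecut1 and Onecut2 descend from E14, Prox1 is highest at P6 with 415 to 489 CPM, Calb1 is highest at P15 with 43.3 to 58.5 CPM, and 1 P60 library of Lhx1 stands at 7.14 CPM.

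Steps between neighbouring ages placed these changes in time. From E14 to E17, 5 of 6 members passed, against 10.6% of features (7.56% higher and 3.02% lower). Onecut1 fell by 0.83 ± 0.13, Onecut2 by 1.11 ± 0.15 and Onecut3 by 0.67 ± 0.19 on the log2 scale (SE, limma adjusted p = 1.02e-05, 1.2e-06 and 0.0153). Prox1 rose by 0.63 ± 0.08 and Calb1 by 1.07 ± 0.22 (limma adjusted p = 2.78e-07 and 0.000845). For Onecut3 the call was lost without E14 replicate 3 (limma adjusted p = 0.0974) or without E17 replicate 1 (0.0654). The log2 fold change of Lhx1 was 0.96 ± 0.33 (limma adjusted p = 0.0637). It did not pass in 32 alternative settings, with edgeR and DESeq2 on all libraries among them, and passed in 8. Those 8 included the fit of only E14 and E17 (limma adjusted p = 0.0198) and that without E14 replicate 1 (0.0349). Lhx1 also passed without P60 replicate 3 (0.0479), without P60 replicate 5 (0.0149) or without P60 libraries 3 to 6 (0.00416). Where P60 libraries were left out, the estimate itself stayed at 0.96.

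From E17 to P1, 4 of 6 members passed, against 9.21% of features (5.77% higher and 3.43% lower). Onecut1 fell by 1.10 ± 0.12, Onecut2 by 0.61 ± 0.14 and Onecut3 by 1.13 ± 0.18 (limma adjusted p = 3.33e-08, 0.00332 and 2.56e-05), while Prox1 rose by 0.52 ± 0.07 (4.74e-06). From P1 to P6, 4 of 6 passed against 38.3% of features (18% higher and 20.4% lower). Onecut1 and Onecut2 fell by 0.78 ± 0.12 and 0.76 ± 0.14, and Prox1 and Calb1 rose by 1.10 ± 0.07 and 2.6 ± 0.21 (limma adjusted p = 2e-06, 4.43e-05, 4.4e-14 and 5.7e-12). The log2 fold change of Onecut3 was 0.05 ± 0.18 (limma adjusted p = 0.871).

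From P6 to P15, 4 of 6 members passed against 33.4% of features (14.4% higher and 19% lower). Onecut2 fell by 1.45 ± 0.14, Onecut1 by 0.72 ± 0.12 and Prox1 by 0.47 ± 0.07, and Calb1 rose by 1.83 ± 0.21 (limma adjusted p = 7.75e-10, 1.17e-05, 4.11e-06 and 2.47e-08). From P15 to P28, 0 of 6 members passed in limma, edgeR or DESeq2, where 2.72% of features did in limma (1.14% higher and 1.58% lower). Calb1 was the 1 member with an unadjusted p under 0.05 there, with a log2 fold change of -0.41 ± 0.19 (limma adjusted p = 0.328), and it passed when only these ages were fitted (0.0246). From P28 to P60, 2 of 6 passed against 12.9% of features (4.8% higher and 8.11% lower). Onecut1 fell by 0.33 ± 0.10 and Onecut2 by 0.49 ± 0.12 (limma adjusted p = 0.0289 and 0.01). Both calls were lost when only P28 and P60 were fitted (limma adjusted p = 0.251 and 0.21) and without P60 libraries 3 and 5 (0.0814 and 0.058). Without P60 libraries 3 to 6 the log2 changes were -0.07 and -0.15 (limma adjusted p = 0.834 and 0.553), so both falls rest on those libraries. The call of Onecut1 was also lost in edgeR (adjusted p = 0.0664), in DESeq2 (0.056), under median-of-ratios scaling (0.0661), and without P28 replicate 1, 2 or 3 or P60 replicate 3, 4 or 6 (0.0566 to 0.11). With a log2 change of at least 1 as well, 2 of 6 members passed in each of the first 4 steps, against 3.6%, 1.84%, 13% and 8.05% of features in turn. In both steps after P15 none of the 6 did so, against 0.384% and 0.453%.

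**Figure D2:**
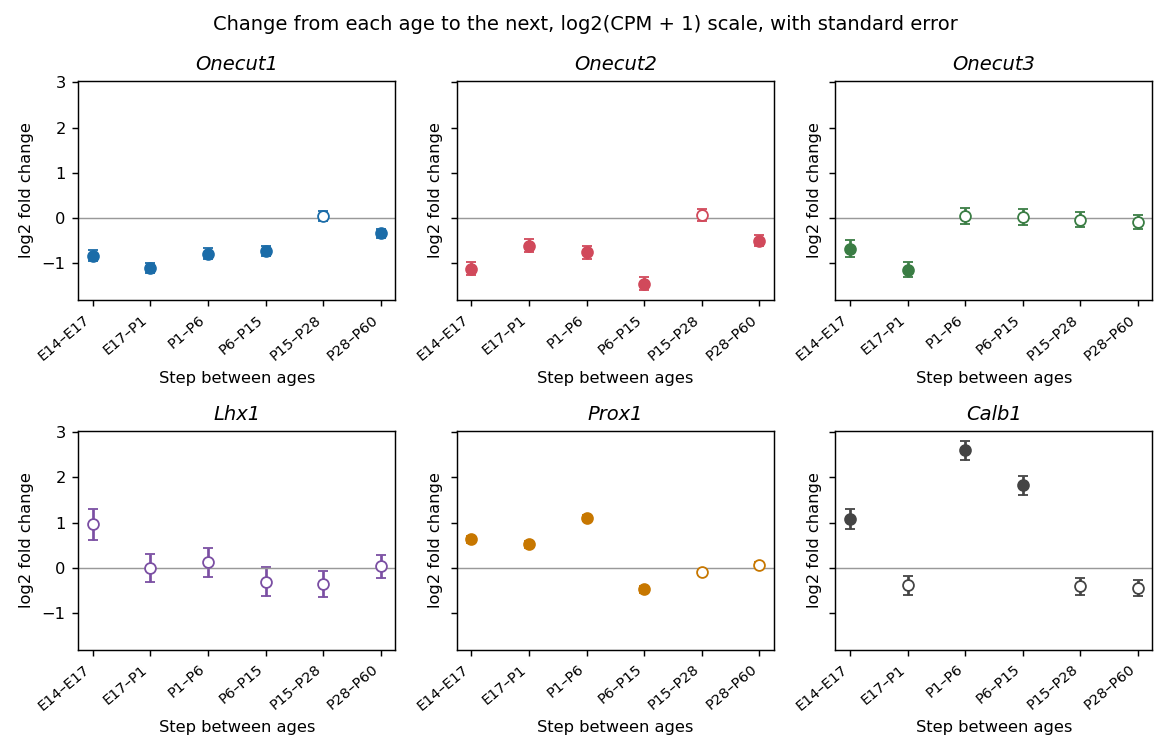
Log2 fold change from each age to the next on the log2(CPM + 1) scale (vertical axis) for the 6 steps between ages (horizontal axis). Points are limma estimates, bars are the SE, and filled points passed at an adjusted p under 0.05. Onecut1 and Onecut2 lie below 0 in the first 4 steps, while Calb1 peaks at 2.6 in the step from P1 to P6.

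Ordered by level, Onecut1 and Onecut2 both ran E14, E17, P1, P6, P28, P15 and P60 from the highest to the lowest, and P28 and P15 were the neighbours that did not differ past the threshold (limma adjusted p = 0.932 and 0.887). For Onecut3, E14 and E17 stood apart and the 5 later ages did not differ between neighbours (limma adjusted p of 0.854 to 0.997). No neighbours differed for Lhx1. Against E14, where it had 9 to 25 reads a library, its log2 fold change passed at P1, P6 and P15. The values were 0.96 ± 0.31, 1.08 ± 0.33 and 0.78 ± 0.31 (limma adjusted p = 0.0197, 0.00706 and 0.0294). Lhx1 did not pass against E14 at E17, P28 or P60 (limma adjusted p = 0.0637, 0.233 and 0.158). Prox1 had P6 above P15, P60 and P28, which did not differ between neighbours, and then P1, E17 and E14 in steps that each passed. For Calb1, P15, P28 and P60 did not differ between neighbours although their libraries did not overlap. Calb1 at P60 did differ from P15, with a log2 fold change of -0.86 ± 0.18 (limma adjusted p = 0.000645). P6 was below P15, P28 and P60 and above E17 and P1, and E14 was lowest. The share of all features that differed was 27.8% for P1 against E14, 43.7% for P6 and 60.2% for P15 against E17, 60.5% for P28 and 67.3% for P60 against P1, 36.6% for P28 and 49.4% for P60 against P6, 65.2% for P28 against E14, and 28.1% for P60 against P15.

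The Onecut paralogs differ in length, with 4.11 kb of exon for Onecut1, 16.2 kb for Onecut2 and 4.78 kb for Onecut3, and levels can be compared between them only per length. Their summed reads fell from 824 ± 15.4 CPM at E14 (SD, n = 3) to 56.3 ± 9.32 CPM at P60 (n = 6). Per kb of exon, Onecut1 was highest at E14 with 55.1 ± 1.41 CPM per kb, followed by Onecut2 with 33.8 ± 0.908 and Onecut3 with 10.2 ± 1.15. At P60 the order was Onecut1 with 3.99 ± 0.730, Onecut3 with 2.73 ± 0.583 and Onecut2 with 1.65 ± 0.402 CPM per kb. Onecut3 had a higher mean than Onecut2 from P15 on, with overlapping libraries at each of these ages. As shares of the sum per kb within a library, the 2 overlapped at P15 only. At P28 Onecut3 had 25.4% to 33.1% and Onecut2 21.5% to 24.2%. At P60 they had 26.0% to 39.1% and 15.5% to 22.6%. The share of Onecut3 was 10.3% ± 1.01 at E14 and 32.7% ± 5.56 at P60. That of Onecut2 was 34.1% ± 0.875 and 19.6% ± 3.27, without overlap of the E14 and P60 libraries for either. Reads that fit more than 1 paralog could have been split or dropped by the counting, and exon length covers all annotated transcripts.

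**Figure D3:**
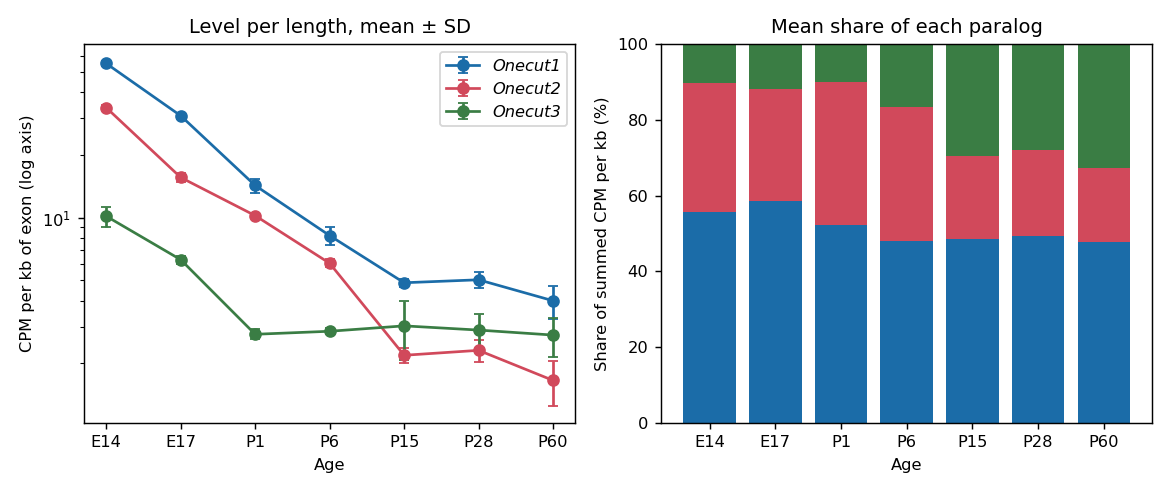
Left, CPM per kb of exon of the 3 Onecut paralogs by age, as mean and SD over 3 to 6 libraries on a log axis; right, mean share of each paralog in their summed CPM per kb (percent), in the same colours. The Onecut3 share grows from 10.3% at E14 to 32.7% at P60.

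Noncoding genes are annotated within 20 kb of all 6 members. Gm16551 ends upstream of the Onecut1 window shown, and that window lies within Gm20649. Lhx1os starts inside the Lhx1 window, and the Prox1 window lies within Prox1os, both on the other strand. Gm16551, a noncoding transcript on the same strand that ends 1787 bases before Onecut1, stood at 75.7% of the CPM of Onecut1 at E14 and 80.8% at P60, with means of 75.7% to 92.7% over the ages and a highest library of 101% at P15. It measured 172 ± 6.45 CPM at E14 and 13.3 ± 2.76 CPM at P60, and its log2 fold change of mature against embryonic retina was -2.94 ± 0.09 (limma adjusted p = 2.83e-24). Prox1os, which is antisense to Prox1 and overlaps it by 419 bases, had 4.55% to 7.50% of the CPM of Prox1 by age mean and a log2 fold change of 1.11 ± 0.20 (limma adjusted p = 7.1e-06). Lhx1os starts 125 bases from Lhx1 on the other strand and had age means of 0.226 to 0.601 CPM, with 0 to 11 reads a library. St8sia3os, 6314 bases from Onecut2, had age means of 2.81 to 3.54 CPM, and 2610034O05Rik, which lies within Onecut3, 0.0977 to 0.722 CPM. At each age from P6 on, the lowest library of 2610034O05Rik was at 0 CPM. Gm20649, which overlaps Onecut1, and Gm28172, which overlaps Prox1, were not analysed here. Whether counting used the strand is not given in the sources used here, and without it reads of Prox1 and Prox1os cannot be told apart in the stretch they share.

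**Figure D4:**
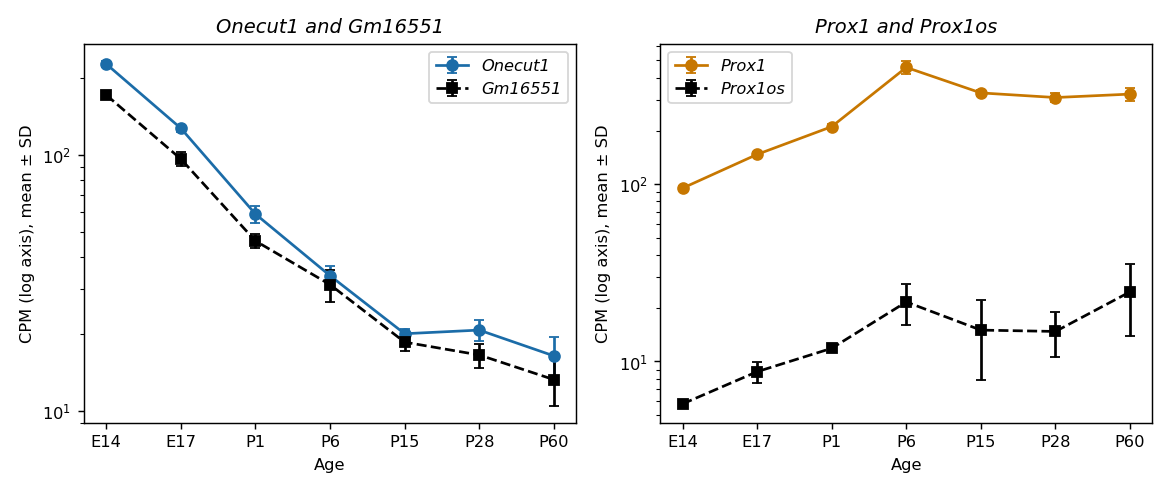
CPM (log axis, mean and SD over 3 to 6 libraries) by age of Onecut1 with the upstream noncoding gene Gm16551 (left) and of Prox1 with the antisense gene Prox1os (right). Mean shares of Gm16551 in the level of Onecut1 run from 75.7% to 92.7% by age, with 1 P15 library at 101%, and Prox1os lies at 4.55% to 7.50% of Prox1.

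Among 7196 candidate genes, those with a Gene ID, a mean of at least 5 CPM and age means that range over at least 1 log2 unit, the patterns most like each member were found by Pearson correlation over the 27 libraries, which share their ages. Gm16551 was most like Onecut1 (r = 0.995), followed by Igfbpl1 (0.984). Klf7 (r = 0.990), Cdh11 (0.989) and Caprin1 (0.987) were most like Onecut2, and Igfbp5 (0.941), Cntn2 (0.940) and Akap12 (0.933) most like Onecut3. Doc2b (r = 0.988), Zfp444 (0.986) and Crx (0.985), a photoreceptor homeobox factor, were most like Prox1. Crx ran from 80.2 CPM at E14 to 1474 CPM at P6 and 891 CPM at P60. Lekr1 (r = 0.989), Hpcal4 (0.989) and 1700071M16Rik (0.986) were most like Calb1, while for Lhx1 the nearest were Shisa7 (0.690), Ptchd2 (0.675) and Zfp503 (0.662). Among the members, Onecut1 and Onecut2 were most alike (r = 0.978), and Onecut2 and Calb1 most opposed (r = -0.928).

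Other genes of the horizontal cell lineage were counted in 2 lists of 11 specification factors and 12 genes of mature cells. Of these 23 genes, 9 were higher and 13 lower in mature than in embryonic retina, against 35% and 40.4% of all features, and their median log2 fold change was -0.64 against -0.06 for all features. Among specification factors, 8 were lower and 3 higher, with a median of -2.28. Foxn4, which acts at the start of the lineage, went from 134 CPM at E14 to 0.10 CPM at P60 (log2 fold change -6.81 ± 0.10, limma adjusted p = 4.51e-32). Atoh7, a proneural factor best known for ganglion cells, had a log2 fold change of -6.34 ± 0.16, and the homeobox genes Dlx1, Dlx2, Six3 and Pax6 had -4.70, -3.32, -2.28 and -1.22. Rorb, a nuclear receptor, stood at 2568 CPM at E14, 3429 CPM at P1 and 851 CPM at P60.

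Of the specification factors, 3 were higher in mature retina, each being highest at P1. All 3 had lower means at P15, P28 and P60 than at E17, so the difference rests on their low E14 values. Tfap2b, an AP-2 factor of horizontal and amacrine cells, had means of 76.8 CPM at E14, 387 CPM at E17, 548 CPM at P1 and 182 CPM at P60 (log2 fold change of mature against embryonic retina 0.41 ± 0.06, limma adjusted p = 3.97e-07). Tfap2a went from 13.4 CPM at E14 to 89.9 CPM at E17, 166 CPM at P1 and 37.2 CPM at P60. Sall3 went from 3.21 to 18.2, 20.0 and 10.7 CPM at the same ages. From P1 to P6 all 11 specification factors fell, where 20.4% of all features did, and from P6 to P15 a further 6 of 11 did so, where 19% of all features did.

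In the list of mature genes 6 were higher and 5 lower, with a median log2 fold change of -0.002. Genes of GABA signalling differed in direction between mature and embryonic retina. Gad1, a GABA-synthesising enzyme, had a log2 fold change of 4.42 ± 0.06 and Slc32a1, the vesicular GABA transporter, 2.83 ± 0.10. Gad2 had -0.64 ± 0.08 (limma adjusted p = 6.86e-33, 5.01e-22 and 1.84e-08 in turn). Step by step, all 3 rose past the threshold up to P1 and again between P6 and P15. They parted between P1 and P6, where Gad1 and Slc32a1 had 0.51 and 0.71 and Gad2 -1.87. Mean Gad2 was 53.2 CPM at E14, 98.3 CPM at E17, 51.7 CPM at P15, 47.6 CPM at P28 and 40.5 CPM at P60. Gja10, the connexin of horizontal cell gap junctions, rose from 0.825 ± 0.184 CPM at E14 (6 to 10 reads) to 3.31 ± 0.577 CPM at P60 (17 to 32 reads), with a log2 fold change of 1.61 ± 0.12 (limma adjusted p = 2.12e-13). Septin4, a cytoskeletal GTPase, had a log2 fold change of 2.50 ± 0.09 and the semaphorin receptor Plxna4 1.10 ± 0.08, while its ligand Sema6a had -1.31 ± 0.06. Plxna4 was highest at P6 with a mean of 73.4 CPM, against 9.70 CPM at E14, 25.15 CPM at E17 and 30.2 CPM at P60. The neurofilament genes Nefl and Nefm, which ganglion cells also express, had 0.14 ± 0.06 and -0.65 ± 0.08 and are annotated as overlapping on opposite strands. The call of Nefl (limma adjusted p = 0.0342) was lost without E14 replicate 1 or 2, E17 replicate 1 or 2, or P15 replicate 4 (0.0624 to 0.0943). The cell-spacing receptor Megf10 had -0.26 ± 0.07 and did not pass in edgeR (adjusted p = 0.0635). Its means were 13.5 CPM at E14, 51.9 CPM at E17, 27.7 CPM at P15, 21.7 CPM at P28 and 18.1 CPM at P60. Each mature mean was thus above E14 and below E17. Megf11 did not pass (-0.15 ± 0.12, limma adjusted p = 0.269), with a higher value in mature retina (0.24, 0.0177) where the entries of the symbol were summed. Megf11 measured 73.6 and 69.6 CPM in P60 libraries 1 and 2 and 26.98 to 45.8 CPM in libraries 3 to 6, and without the latter its log2 fold change was 0.06 (limma adjusted p = 0.315). The 4 marker genes used as a check on the cell type (Gja10, Septin4, Tfap2b and Sall3) summed to 86.8 to 106 CPM at E14, 506 to 662 CPM at P1 and 280 to 308 CPM at P60. Most of this sum was Tfap2b, which amacrine cells also express, and the 4 did not move together: between P1 and P60 the means of Gja10 (0.481 and 3.31 CPM) and Septin4 (24.5 and 96.0 CPM) went up and those of Tfap2b and Sall3 down. Gja10 was lowest at E17 with a mean of 0.133 CPM.

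**Figure D5:**
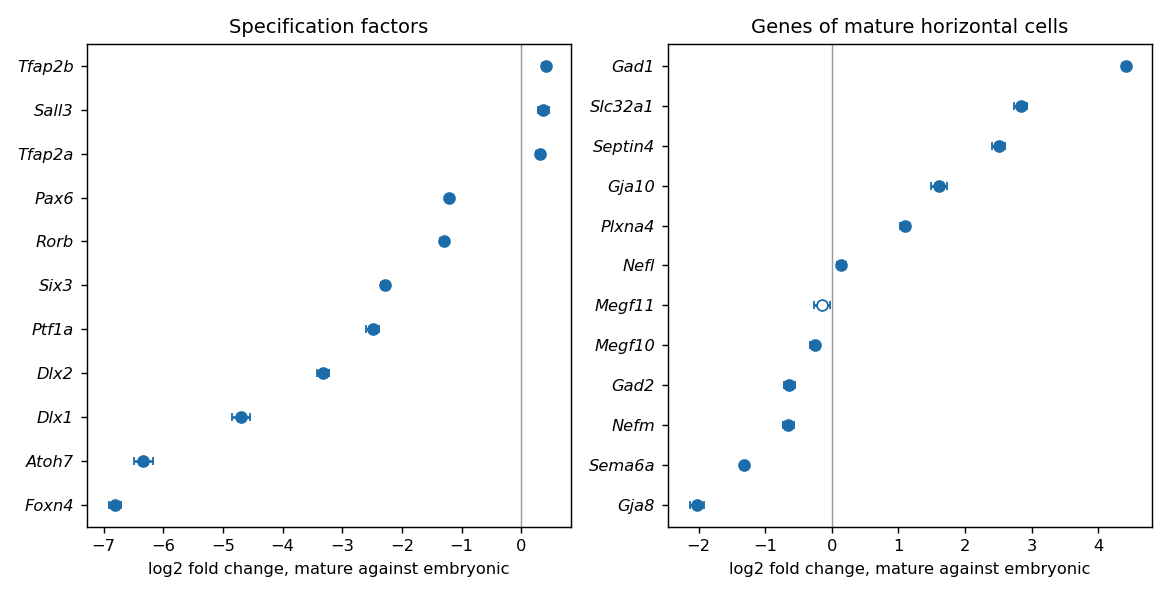
Log2 fold change of mature against embryonic retina on the log2(CPM + 1) scale (horizontal axes) for the specification factors (left) and the genes of mature horizontal cells (right), 1 gene a line. Points are limma estimates, bars are the SE, and filled points passed at an adjusted p under 0.05; values run from -6.81 for Foxn4 to 4.42 for Gad1.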

How the data were processed

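RNA-seq of whole retina gave 27 libraries. The authors built total RNA libraries, aligned single-end reads to GRCm38 (mm10) with STAR and deposited 1 table of CPM values. The annotation of the table and any use of strand are not given in the sources used here. All values came out as whole reads (100% within 0.01 reads), with totals of 7077781 to 11332323 reads per library; depth limits and floors cover counting error only. Of 38168 features, 14905 have no Gene ID.

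Libraries were grouped by age from the labels. The members and gene lists were chosen with earlier results of these data known. CPM values were transformed to log2(CPM + 1), a scale that understates changes of low genes. The 31760 features that reached 1 CPM in 3 or more libraries were fitted in limma 3.58.1 (R 4.3.3) with a mean-variance trend, all 27 libraries and age as the factor, with two-sided tests and p-values adjusted by Benjamini-Hochberg across every feature fitted. P-values measure the spread between libraries, some of which were pools. Genes named are the members, list genes with an age mean of at least 10 CPM and Gja10, noncoding neighbours, and the 3 most alike features of each member, of which 1 is not reported here. Septin4 and Prox1os were matched by Gene ID. Positions and exon lengths came from GENCODE and promoters from RefSeq, and the promoters of 3 of 6 members were used. Alternatives were a pseudocount of 0.1, other filters and scalings, edgeR 4.0.16 and DESeq2 1.42.0 on whole reads, fits restricted to the ages compared, a replicate block, a minimum log2 change, summed entries of a symbol and each library left out. Libraries 3 and 5 or 3 to 6 of P60 left out together, edgeR without E14 replicate 1, and the 2 alternatives for the order of ages were chosen after seeing the data. The comparison of mature with embryonic retina was checked on simulated reads in limma, edgeR and DESeq2. The other comparisons were not checked in this way. Python 3.11.15, pandas 2.3.3 and matplotlib 3.10.9 were also used.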

Additional observations from a re-analysis of the deposited data

Results flagged for a closer look

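Lhx1 in P60 library 5 measured 7.14 CPM (52 reads), where the nearest of the other P60 libraries had 3.20 CPM and the lowest 1.22 CPM. The gap to the nearest library was 0.666 of the range of the group. Of 24 groups tested for a library standing apart, 1 had one, and chance gives about 1 in 20. The same library had the largest share of features at 0 (13.4%).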

How the results depend on the processing

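Over 41 alternative settings, 1655 of 1715 values of the members kept their direction and their side of the threshold, 19 lost significance, 9 gained it and 32 changed sign; the cause was not tested. The members called between mature and embryonic retina stayed at 5 in the settings run. With a log2 change of at least 1, 2 members passed in each of the first 4 steps and 0 in the last step, P60 against P28. With only the ages compared, 1 member passed in P28 against P15 and 0 in P60 against P28. From P28 to P60, 1 member passed under DESeq2, edgeR, edgeR without E14 replicate 1, median-of-ratios scaling or the replicate block, 0 without P60 libraries 3 and 5 or without libraries 3 to 6, and 1 to 2 with 1 library left out; the call of Onecut1 was lost without P28 replicate 1, 2 or 3 or P60 replicate 3, 4 or 6, where Onecut1 had a limma adjusted p of 0.0566 to 0.11. Replicate numbers do not pair the libraries (69 pairs, correlations of -0.13 to 0.17, 3 over 0.1), and under the replicate block Lhx1 passed from E14 to E17 (limma adjusted p = 0.0217).

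Sign changes were at small values. For Lhx1 from E17 to P1 the log2 change was -0.02 under median-of-ratios scaling and DESeq2 (-0.0197 and -0.0244), -0.0254 under edgeR with and without E14 replicate 1, -0.0123 under the replicate block and -0.0031 with totals without mitochondrial and ribosomal RNA. From P28 to P60 Lhx1 had -0.0010 with a pseudocount of 0.1, -0.126 under the replicate block and -0.186 without P60 libraries 3 and 5, where Prox1 had -0.0113. Without P60 libraries 3 to 6, Lhx1 had -0.015 in mature against embryonic retina and -0.24 in P60 against P28, Prox1 had -0.050 there, and Megf11 had 0.062 in mature against embryonic retina. Onecut3 from P6 to P15 had -0.0030 under the replicate block, and Megf11 had 0.24 with summed entries. With 1 library left out, Lhx1 ran from -0.01 to 0.20 in mature against embryonic retina, -0.045 to 0.075 in P1 against E17, -0.020 to 0.36 in P6 against P1 and -0.22 to 0.16 in P60 against P28. Onecut3 likewise ran from -0.14 to 0.19 in P15 against P6, -0.19 to 0.14 in P28 against P15 and -0.17 to 0.034 in P60 against P28, and Onecut1 from -0.011 to 0.090 in P28 against P15.

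Depth limits Lhx1 (9 to 52 reads a library) and Calb1 at E14 (1 to 12 reads), and among the noncoding neighbours Lhx1os (0 to 11 reads) and 2610034O05Rik.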
